A study of Mus musculus with 8 samples.

Results

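Activity-induced immediate early genes were followed in cultured mouse neurons lacking NUAK1, an AMPK-related kinase that supports axon branching, and in wild-type neurons. The members were the 10 genes Fos, Fosb, Fosl2, Junb, Egr1, Egr2, Egr3, Egr4, Npas4 and Arc. They were taken by name from the 32726 genes of the count table, with earlier results of these data known. All 10 were found, and 9 passed the filter on low counts, under which 16272 genes were tested. Egr4 did not pass it.

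The data comprised 4 Nuak1 knockout (KO) and 4 wild-type (WT) libraries of poly-A RNA from neurons kept for 5 days in vitro, numbered KO1-KO4 and WT1-WT4 by their labelled replicates. KO animals carried a constitutive Nuak1 knockout allele, so the genotype was not restricted to neurons, and the animals were kept on a C57Bl/6JRj background. Neurons were dissociated from embryonic brain, described as cortex in the study and as cortex or hippocampus in the tissue label of every library, and were grown in serum-free medium. No stimulated or silenced cultures were included, so the values describe unstimulated cultures as they were scraped and frozen. KO1 to KO3 carry the strain label BJ, KO4, WT2 and WT4 the label BK, WT1 the label BO and WT3 the label BQ, and the meaning of these labels is not given. Lane A carried KO1, WT1, WT3 and KO4, and lane B the rest. RNA-seq libraries are described as coming from separate animals, but no label ties a library to an animal or a culture, so p-values measure the spread between these libraries.

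Libraries held 31247078 to 67155004 counts, and 3 counts corresponded to 0.0447 to 0.096 CPM (counts-per-million, each count scaled by the total of its library). Nuak1 was at 1.96 to 2.72 CPM in KO and at 51.6 to 82.6 CPM in WT, so that KO over WT gave −4.9 on the log2 scale (SE 0.13, adjusted p 1.38e-07 by edgeR quasi-likelihood, where adjusted means after Benjamini-Hochberg, BH, correction). KO1 and WT1 stood apart from the other libraries, and the surrogate variable used in the model, a covariate estimated from the counts, was −0.565 and −0.617 in them against 0.045 to 0.377 elsewhere. The 13 neuronal markers with an identifier summed to 5490 to 6730 CPM in every library, so neuronal transcripts were abundant in each. Single markers differed more, Tubb3 running from 252 CPM in WT1 to 1340 CPM in KO4, and the sum does not measure the share of neurons.

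Immediate early genes are transcribed within minutes of synaptic input, calcium entry or growth factor signalling, without the need for new protein. Calcium and kinase signals act on CREB, which binds cAMP response elements (CREs), and on serum response factor with its partners, which bind CArG boxes. The products are mostly transcription factors that switch on a later set of genes, and Arc is an exception that acts at synapses. The same genes also respond to medium change, temperature shift and other handling of a culture, which is why they can serve as an index of the state of each culture at lysis.

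To show elements of the kind on which such signals act, the bases near annotated starts were searched for the CRE core TGACG, on either strand, and for the CArG box. RefSeq promoter windows on GRCm38.p6, from 250 bases before to 50 bases after a start, were matched for 7 of 10 members, Fos, Fosb, Fosl2, Junb, Egr2, Egr4 and Npas4. The sequences below are the 250 bases before the start, 5′ to 3′ on the strand of the gene, with core sites and CArG boxes in capitals, for Fos (chr12:85473640-85473889, plus strand), Fosb (chr7:19310046-19310295, minus strand), Egr2 (chr10:67537619-67537868, plus strand) and Npas4 (chr19:4989972-4990221, minus strand). Fos and Fosb are shown because they had the widest fold range between libraries of the members with a fold to give. Egr2 is shown because this window held both elements, and Npas4 because its window carries a pair of core sites close together.
Fos: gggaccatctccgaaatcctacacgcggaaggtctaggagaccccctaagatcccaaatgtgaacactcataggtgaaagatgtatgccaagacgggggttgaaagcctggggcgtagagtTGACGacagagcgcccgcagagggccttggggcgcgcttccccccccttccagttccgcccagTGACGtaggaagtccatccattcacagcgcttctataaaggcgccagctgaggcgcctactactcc
Fosb: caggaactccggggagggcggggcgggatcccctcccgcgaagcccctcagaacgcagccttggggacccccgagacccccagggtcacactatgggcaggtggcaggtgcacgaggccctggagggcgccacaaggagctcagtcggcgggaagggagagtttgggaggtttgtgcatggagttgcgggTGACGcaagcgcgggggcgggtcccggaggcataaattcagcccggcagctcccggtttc
Egr2: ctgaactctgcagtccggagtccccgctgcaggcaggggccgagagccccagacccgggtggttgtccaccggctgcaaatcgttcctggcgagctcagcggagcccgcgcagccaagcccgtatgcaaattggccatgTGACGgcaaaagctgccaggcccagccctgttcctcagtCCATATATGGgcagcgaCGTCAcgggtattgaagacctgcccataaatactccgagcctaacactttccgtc
Npas4: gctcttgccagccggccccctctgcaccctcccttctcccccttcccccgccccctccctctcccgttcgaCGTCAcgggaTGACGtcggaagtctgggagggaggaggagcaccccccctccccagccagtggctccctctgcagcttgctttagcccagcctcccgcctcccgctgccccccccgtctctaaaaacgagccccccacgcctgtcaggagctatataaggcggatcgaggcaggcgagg

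Core sites began 129 and 66 bases before the start in Fos, 60 bases before it in Fosb, and 179 and 169 bases before it in Npas4. In the Egr2 window shown they began 111 and 55 bases before the start, and a CArG box began 72 bases before it. This was 1 of 5 windows for Egr2 at different annotated starts, of which 3 overlapping ones held both elements, 1 held a CArG box only and 1 held neither. Among members not shown, Junb held 1 core site, Egr4 held 2, and Fosl2 held neither element. Of 32851 promoter windows of the same length, 20.8% held at least 1 core site and 1.63% held a CArG box. The full palindromic CRE, TGACGTCA, which contains a core site on each strand, was present in 1.79% of windows and in none of the members' windows. These are matches of letters and not measured binding. Bases farther than 250 before a start were not searched, so a window without an element does not show that the gene lacks it.

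The members were expressed at very different levels. Fosl2 (ENSMUSG00000029135, GRCm38.p6 chromosome 5, 32136472 to 32157840), which encodes the Fos-related protein FRA2, was the most abundant, at 137, 140, 173 and 171 CPM in WT1 to WT4 and 137, 192, 184 and 130 CPM in KO1 to KO4. The libraries lay close together, and the highest was 1.47-fold above the lowest. Per kilobase of transcript (RPKM, the CPM value divided by the transcript length in kilobases), Fosl2 was at 26.6 ± 3.34 in WT (SD, n = 4), well above Egr1 at 5.64 ± 4.24, Fos at 3.33 ± 3.06 and Npas4 at 3.05 ± 1.19. Fosb was at 0.974 ± 0.989 RPKM in WT, Egr2 at 0.519 ± 0.272, Junb at 0.315 ± 0.332, Arc at 0.248 ± 0.182 and Egr4 at 0.0459 ± 0.0586 (SD, n = 4 each). In this order only the step from Fosl2 to Egr1 was larger than the sum of the neighbouring SDs. Egr3 was left out of it, since its longest annotated transcript, 1416 bases, is short beside its 5297-base gene span and would raise its level per length.

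Of the AP-1 factors, which bind DNA as dimers of a Fos and a Jun protein, Fos (ENSMUSG00000021250, chromosome 12, 85473890 to 85477274) varied widely. It was at 0.896, 2.56, 14.7 and 9.95 CPM in WT1 to WT4 and at 1.67, 4.39, 5.41 and 2.64 CPM in KO1 to KO4. WT3 and WT4 were above every KO library and WT1 was below every KO library, so the genotypes overlapped from end to end. Mean abundance was 7.03 ± 6.46 CPM in WT and 3.53 ± 1.69 CPM in KO (SD, n = 4 each), and WT3 was 16.4-fold above WT1. The log2 fold change, KO over WT, was −0.62 with a 95% interval from −1.83 to 0.59 (SE 0.53, BH-adjusted p 0.703 by edgeR). Like all fold changes of the reported fit, it came from the model with the surrogate variable and is not the ratio of the CPM means. With no surrogate variable it was −1.01.

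Fosb (ENSMUSG00000003545, chromosome 7, 19302696 to 19310118), whose product takes the place of Fos in AP-1 during longer activity, had the widest range of all members with a fold to give. It was at 0.288, 1.18, 8.41 and 4.74 CPM in WT1 to WT4 and at 0.172, 2.49, 1.71 and 1.41 CPM in KO1 to KO4. As for Fos, WT3 and WT4 were the highest of the 8 libraries, and KO1 and WT1 were the lowest, 48.8-fold below WT3 in the case of KO1. That range rested on 6 counts in KO1 and 9 in WT1, against 57 to 401 in the other libraries. Mean abundance was 3.65 ± 3.71 CPM in WT and 1.44 ± 0.961 CPM in KO (SD, n = 4 each). The log2 fold change in the model with the surrogate variable was −0.96 with an interval from −2.25 to 0.34 (SE 0.57, BH-adjusted p 0.579 by edgeR). With no surrogate variable it was −1.36. Fosl2, with its narrow spread, gave a log2 fold change of 0.02 and an interval from −0.25 to 0.28 (SE 0.12, BH-adjusted p 0.973 by edgeR).

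Junb (ENSMUSG00000052837, chromosome 8, 84976909 to 84978748), a Jun-family partner of the Fos proteins, rested on few reads. It had 1, 25, 68 and 17 counts in WT1 to WT4 and 3, 4, 19 and 11 counts in KO1 to KO4, or 0.032 to 1.43 CPM and 0.0862 to 0.364 CPM. WT3 stood far above the other libraries, while WT1 was the lowest of all and KO1 was at the level of 3 counts. Its log2 fold change was −1.06 with an interval from −2.01 to −0.1 (SE 0.43, unadjusted p 0.0333, BH-adjusted p 0.445 by edgeR). Junb was the only member past the study's threshold, an unadjusted p under 0.05 with an absolute log2 fold change above 0.25, which 5.67% of all tested genes passed. It no longer passed without WT3, at −0.61 (unadjusted p 0.171), KO4, at −0.85 (unadjusted p 0.126), KO2, at −0.91 (unadjusted p 0.079), or WT4, at −1.06 (unadjusted p 0.0591), nor without replicate 1 of both genotypes, at −0.78 (unadjusted p 0.102), all by edgeR. The call was also lost in edgeR with no surrogate variable (unadjusted p 0.102), 2 surrogate variables (unadjusted p 0.0923), a lane term (unadjusted p 0.144) or the strain label as a term (−0.59, unadjusted p 0.469), on each lane alone, and with DESeq2 (unadjusted p 0.0853) and limma-voom (unadjusted p 0.0501).

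**Figure D1:**
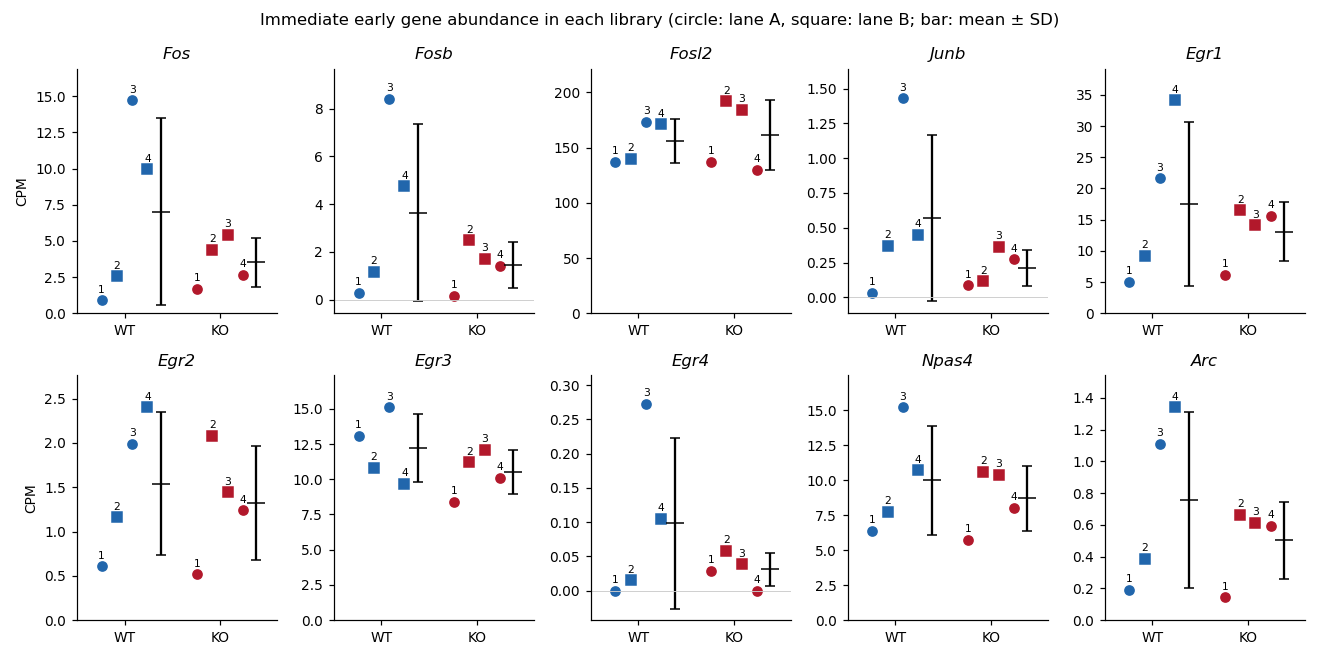
Abundance in CPM (y axis, linear, a separate scale for each gene) of the 10 members in each WT (blue) and KO (red) library, with the replicate number above each point, circles for lane A, squares for lane B and the mean ± SD (n = 4) beside each group. WT3 and WT4 lay highest and WT1 and KO1 lowest in most panels, the Fosl2 points lay close together, and no panel separated the genotypes.

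Among the EGR zinc-finger factors, Egr1 and Egr2 were also lowest in KO1 and WT1 and highest in WT4. Egr1 (ENSMUSG00000038418, chromosome 18, 34861207 to 34864956), which is induced by synaptic activity and by growth factors, was at 5.02, 9.19, 21.6 and 34.1 CPM in WT1 to WT4 and at 6.15, 16.5, 14.1 and 15.6 CPM in KO1 to KO4. WT4 was the highest library, 6.79-fold above WT1, and KO2 to KO4 lay together between WT2 and WT3. Mean abundance was 17.5 ± 13.1 CPM in WT and 13.1 ± 4.75 CPM in KO (SD, n = 4 each), and the log2 fold change was −0.32 with an interval from −1.2 to 0.57 (SE 0.38, BH-adjusted p 0.804 by edgeR). Without WT4 it was 0.21.

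Egr2 (ENSMUSG00000037868, chromosome 10, 67534469 to 67542188), a factor also known for its role in myelination, was at 0.608, 1.16, 1.99 and 2.4 CPM in WT1 to WT4 and at 0.517, 2.08, 1.44 and 1.24 CPM in KO1 to KO4. KO1 and WT1 were again the lowest, and KO2 was next below WT4. The log2 fold change was −0.18, from −0.88 to 0.52 (SE 0.31, BH-adjusted p 0.867 by edgeR), and without WT4 it was 0.09. The gene overlaps Gm32255 in the RefSeq annotation, and union-mode counting leaves out reads that fall on both where its annotation holds both.

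Egr3 (ENSMUSG00000033730, chromosome 14, 70077317 to 70082613) followed the others only in part. It was at 13.1, 10.8, 15.1 and 9.66 CPM in WT1 to WT4 and at 8.42, 11.2, 12.1 and 10.1 CPM in KO1 to KO4. KO1 was the lowest library and WT3 the highest, as for Fosb. However, WT1, the lowest library for Fos and Egr1, was here the second highest, and WT4 was the second lowest. The log2 fold change was −0.25, from −0.6 to 0.09 (SE 0.15, BH-adjusted p 0.579 by edgeR). Egr4 (ENSMUSG00000071341, chromosome 6, 85511121 to 85513589) was close to the limit of detection, with 0, 1, 13 and 4 counts in WT1 to WT4 and 1, 2, 2 and 0 counts in KO1 to KO4. WT3 and WT4 were the only libraries above 3 counts, and no fold is given.

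Npas4 (ENSMUSG00000045903, chromosome 19, 4984353 to 5003439), a bHLH-PAS factor that is induced by calcium entry in neurons and shapes inhibitory synapses, was at 6.4, 7.73, 15.2 and 10.7 CPM in WT1 to WT4 and at 5.75, 10.6, 10.4 and 8.01 CPM in KO1 to KO4. The lowest library was KO1 and the highest WT3, 2.64-fold apart. Mean abundance was 10 ± 3.89 CPM in WT and 8.7 ± 2.3 CPM in KO (SD, n = 4 each), and the log2 fold change was −0.18, from −0.57 to 0.2 (SE 0.17, BH-adjusted p 0.727 by edgeR).

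Arc (ENSMUSG00000022602, chromosome 15, 74669081 to 74672570), a cytoskeleton-associated protein that promotes the removal of AMPA receptors from synapses, was scarce. It had 6, 26, 53 and 51 counts in WT1 to WT4 and 5, 23, 32 and 24 counts in KO1 to KO4, or 0.192, 0.387, 1.11 and 1.34 CPM and 0.144, 0.665, 0.614 and 0.593 CPM. KO2 to KO4 were nearly equal, KO1 lay far below them, and WT3 and WT4 lay above all KO libraries. The log2 fold change was −0.49, from −1.39 to 0.41 (SE 0.4, BH-adjusted p 0.691 by edgeR), and without WT4 it was −0.03 (BH-adjusted p 0.98 by edgeR).

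Across the members, 0 of 9 passed the adjusted threshold of 0.05, which 0.0492% of all tested genes passed by edgeR, and 1 of 9, Junb, had an unadjusted p under 0.05, against 10.5% of all tested genes. limma-voom also called 0 of 9 after adjustment. DESeq2 called 0 of the 7 members to which it gave an adjusted p and left Junb and Arc without one, and by either tool 0 of 9 had an unadjusted p under 0.05. CPM separated the genotypes in 0 of 9 members, against 2.4% of all tested genes. The log2 fold change was negative in 8 of 9, against 46.6% of all tested genes, and its median was −0.32 against 0.01 over all genes. Most members share the same high and low libraries, with Fosl2 and, in part, Egr3 as exceptions, so their directions are not separate observations. Intervals for Fos, Fosb, Junb, Egr1 and Arc reached beyond a log2 fold change of 1 in the negative direction, so a difference of that size is not shown to be absent.

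**Figure D2:**
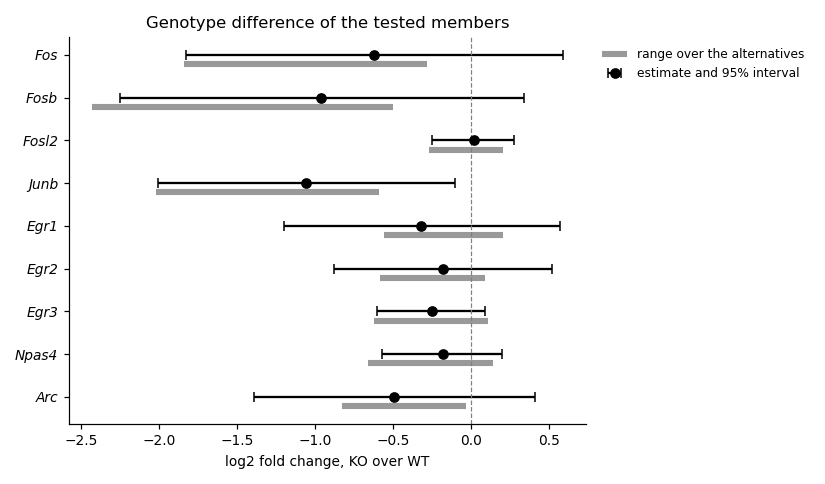
Log2 fold change, KO over WT (x axis), of the 9 tested members (rows), with points for the estimate, thin bars for its 95% interval and grey bars for the range of estimates over the alternative fits. Every interval but that of Junb crossed 0, and the grey bars of Fos, Fosb, Junb and Arc stayed below 0, those of Fos reaching from −1.84 to −0.28 and those of Fosb from −2.43 to −0.5.

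Spread within a genotype was larger for the members than for most genes. The SD of log2 CPM within genotypes had a median of 0.98 over the 9 members, from 0.21 for Fosl2 to 1.84 for Fosb, against a median of 0.28 over all tested genes. When each gene was centred on its mean over the 8 libraries, the mean of the members was −1.12, −0.1, 1.17 and 0.83 on the log2 scale in WT1 to WT4 and −1.14, 0.19, 0.22 and −0.04 in KO1 to KO4. WT therefore held both the highest libraries and 1 of the lowest, whereas KO2 to KO4 lay near the middle.

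KO1 and WT1 were the lowest pair of the 8 libraries in 7 of 9 tested members, all but Fosl2 and Egr3, against 28.8% of all tested genes. WT3 or WT4 was the highest library in 8 of 9, all but Fosl2, against 29.1% of all tested genes, with WT3 highest for Fos, Fosb, Junb, Egr3 and Npas4 and WT4 for Egr1, Egr2 and Arc. Both orders were chosen after the values were seen, and they carry no test.

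**Figure D3:**
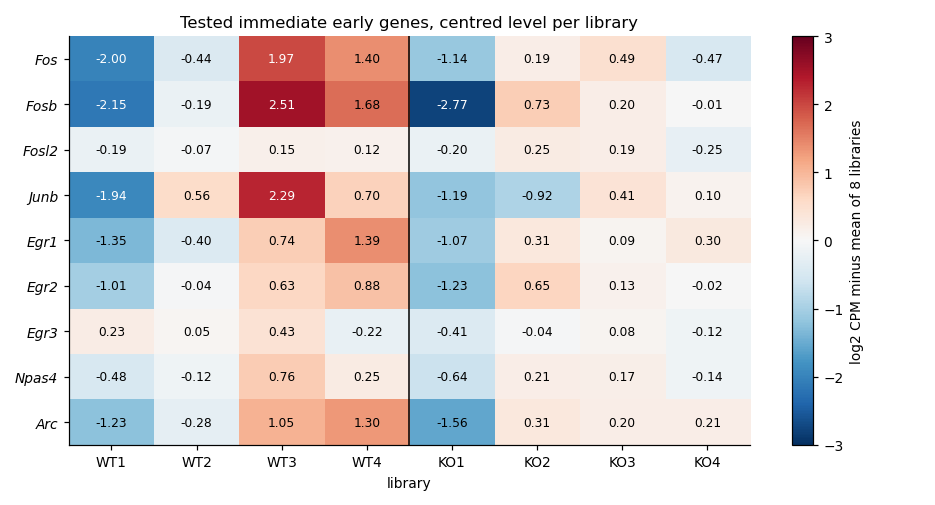
Heat map of log2 CPM minus the gene's mean over the 8 libraries (colour, value printed in each cell) for the 9 tested members (rows) in the WT and KO libraries (columns, separated by a line). The columns of WT1 and KO1 were negative for all members but Egr3 in WT1, those of WT3 were positive throughout, and the row of Fosl2 stayed between −0.25 and 0.25.

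By the root mean square distance between centred profiles over the 8 libraries, Egr2 and Arc (0.26 each), Egr1 (0.31) and Npas4 (0.38) lay closest to the members' mean, followed by Fos (0.51), Fosl2 (0.65), Junb (0.68), Egr3 (0.72) and Fosb (0.9). Each member is part of the mean it is compared with, so these distances are not on equal terms with those of other genes. The nearest genes outside the members were Ppp1r15a (0.15), Psph (0.18), Per1 (0.18), Pycr1 (0.2) and Scarf2 (0.21). Ppp1r15a, which encodes GADD34, a phosphatase subunit of the integrated stress response, was at 4.48, 7.74, 24.3 and 20.5 CPM in WT1 to WT4 and at 4.25, 14.5, 13.5 and 10.1 CPM in KO1 to KO4. Psph and Pycr1 encode enzymes of serine and proline synthesis. Per1, a clock gene that is also a rapid CREB target, was at 16.4, 32.8, 69.7 and 47.4 CPM in WT and at 18.2, 37.4, 38.7 and 36.3 CPM in KO. The likeness is over 8 libraries that differ in depth and in base composition, and is a description.

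Base composition moved with the same libraries. Transcript GC content was known for 13636 tested genes, 83.8% of them, with a median of 50.3%. All 10 members were above that median, from 51.43% for Egr2 to 68.38% for Egr4, and 6 were in the GC-rich class, the genes at or above the upper quartile of 55.1%. The median centred level of the GC-rich class minus that of the GC-poor class, at or below the lower quartile of 45.6%, was −0.83 in KO1 and −0.94 in WT1 on the log2 scale, against 0.12 to 0.44 in the other 6 libraries. KO1 and WT1 were the lowest pair in 78.4% of the GC-rich class and in 25.3% of genes between the quartiles, against 4 of 5 tested members in the GC-rich class and 3 of 4 between the quartiles. WT3 and WT4, where most members were highest, had GC differences of 0.44 and 0.16, and KO4, where the members were near their mean, had 0.43. The surrogate variable of the model ordered the libraries as this GC difference did, from −0.617 in WT1 to 0.377 in WT3. Fold changes of the reported fit are thus adjusted for a covariate that follows base composition, and CPM and centred values are not. The part of base composition in the members' levels was not tested.

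Without replicate 1 of both genotypes, which left KO2 to KO4 and WT2 to WT4, log2 fold changes were −0.8 for Fos, −0.9 for Fosb, −0.54 for Egr1, −0.27 for Egr2, −0.53 for Arc, −0.06 for Npas4, 0.04 for Egr3 and 0.01 for Fosl2. Leaving out WT3 alone gave −0.36 for Fos, −0.69 for Fosb and −0.03 for Npas4. In the fits just named 0 members passed the adjusted threshold in edgeR.

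Lane was asked about next, since 2 libraries of each genotype were sequenced on each. Within lane A, which held both KO1 and WT1 and also WT3, the log2 fold change was −1.84 for Fos, −2.43 for Fosb and −2.02 for Junb. Within lane B it was −0.35, −0.5 and −0.72 for the same genes. For Egr1 the lane A and lane B values were −0.29 and −0.52, for Egr2 −0.58 and −0.05, and for Arc −0.83 and −0.4. Fosl2 (−0.23 and 0.21), Egr3 (−0.62 and 0.11) and Npas4 (−0.66 and 0.14) had opposite signs in the lanes. The difference of the genotype effect between lanes passed the adjusted threshold in 0 of 9 members, against 0% of all tested genes. It was past an unadjusted p of 0.05 in 1 of 9, Egr3, at 0.74 on the log2 scale (unadjusted p 0.0364, BH-adjusted p 1 by edgeR). Of the 16272 genes tested in this way, 256 were past the same unadjusted p.

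Other genes of the response were examined as lists, which were drawn up by function with earlier results of these data known. Of 9 other AP-1 and partner factors, 7 were tested, 0 passed either threshold, and the median log2 fold change was −0.07, with 6 lower and 1 higher in KO. This median was 0.21 with the strain label as a term, 0.08 without WT4 and 0.03 without KO4, so it had no stable sign. Jun, the main partner of Fos, was at 19, 33.1, 38.6 and 49.1 CPM in WT1 to WT4 and at 26.7, 36.6, 37.9 and 33.8 CPM in KO1 to KO4 (log2 fold change −0.02, SE 0.15, BH-adjusted p 0.969 by edgeR). Jund, a more constant Jun protein, was highest in WT3, at 7.89 CPM against 2.02 to 4.79 CPM in the other libraries (log2 fold change −0.29, SE 0.25, BH-adjusted p 0.705 by edgeR). Arnt2, the dimer partner of Npas4, showed a log2 difference of 0.1 (SE 0.07, BH-adjusted p 0.621 by edgeR).

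Among 29 other rapid primary response genes, all tested, 0 passed the adjusted threshold, and 1 higher and 2 lower genes passed the study's threshold, against 5.67% of all tested genes. The median was −0.08, with 20 lower and 9 higher in KO. Ier2, a nuclear growth-response protein, was at 0.512, 2.08, 5.06 and 3.76 CPM in WT1 to WT4 and at 0.517, 1.47, 2.07 and 2.05 CPM in KO1 to KO4 (log2 fold change −0.72, SE 0.23, BH-adjusted p 0.365 by edgeR). For Ier3, a stress-response gene, KO over WT gave −0.88 on the log2 scale (SE 0.31, BH-adjusted p 0.394), and for Arl4d, a small GTPase of the ARF family, it was 0.3 (SE 0.12, BH-adjusted p 0.461), both by edgeR.

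The late set, made of activity-dependent genes such as neuropeptides and secreted growth factors, had 18 of 20 members tested. Again 0 passed the adjusted threshold, 1 lower gene, Pcsk1, passed the study's threshold, against 5.67% of all tested genes, and the median was −0.17, with 14 lower and 4 higher in KO. The sign of this median depended on the fit, since it was 0.1 without WT3, 0.05 with 2 surrogate variables and 0.01 on lane B alone, and it was −0.4 without KO1. Pcsk1, a protease that processes neuropeptide precursors, showed a log2 difference of −0.77 (SE 0.31, BH-adjusted p 0.446), and Rgs4, a regulator of G-protein signalling, one of −0.44 (SE 0.21, BH-adjusted p 0.506), both by edgeR. Bdnf, the neurotrophin that is a classic late target of activity, was at 3.52, 2.46, 15.8 and 3.61 CPM in WT1 to WT4 and at 3.59, 3.61, 4.58 and 1.66 CPM in KO1 to KO4. The neuropeptide precursor Vgf had 16.6 CPM in WT3 against 0.96 to 3.95 CPM in the others. Both were named after their values were seen. The mean centred level of the late list was 0.93 in WT3 and −0.14 in WT4 on the log2 scale, where that of the members was 1.17 and 0.83. Single late genes departed from this mean, Rgs4 being at 104 CPM in WT1 and 108 CPM in WT3.

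Factors that carry the signal to the nucleus, such as Creb1, Srf and Camk4, were tested in full. All 24 were measured, 0 passed either threshold, 12 were higher and 12 lower in KO, and the median was 0. Mapk3, the kinase ERK1, showed a log2 difference of 0.18 (SE 0.07, BH-adjusted p 0.413) and Crtc1, a CREB coactivator, one of 0.17 (SE 0.07, BH-adjusted p 0.452), both by edgeR. Heat shock genes, taken as a sign of handling, had 11 of 12 tested, 0 past either threshold and a median of 0.04. Their mean centred level stayed between −0.1 and 0.11 on the log2 scale over the 8 libraries, whereas that of the members ran from −1.14 to 1.17. Single heat shock genes differed between libraries in opposite ways within this mean. Hsph1, a chaperone of the HSP110 family, was at 278 CPM in KO1 and 267 CPM in WT1 against 149 to 185 CPM elsewhere, and the co-chaperone Bag3 ran from 0.201 CPM in KO1 to 1.11 CPM in WT3, both named after their values were seen. Hspe1, a mitochondrial chaperonin, showed a log2 difference of 0.19 (SE 0.08, BH-adjusted p 0.458) and the inducible chaperone gene Hspa1a one of −0.43 (SE 0.27, BH-adjusted p 0.589), both by edgeR.

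**Figure D4:**
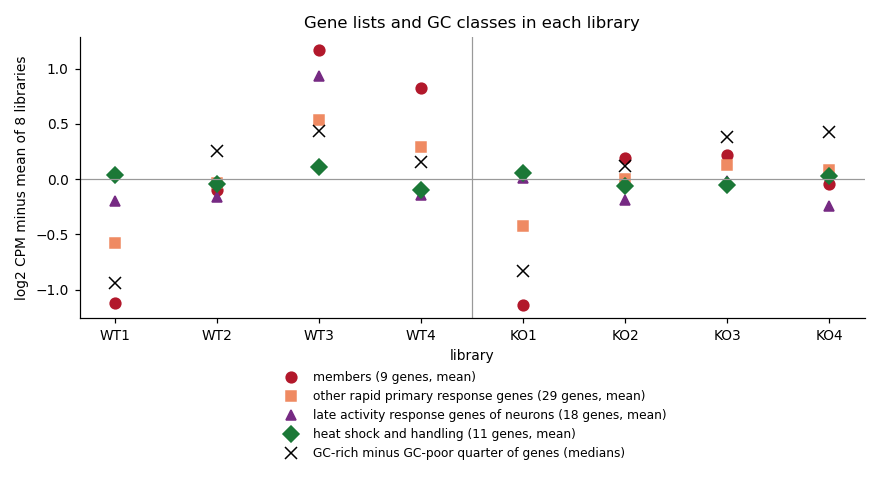
Mean centred log2 CPM (y axis) of the tested members, the other rapid primary response genes, the late activity response genes and the heat shock genes in each library (x axis), with crosses for the difference between GC-rich and GC-poor genes. Members and rapid genes were lowest in KO1 and WT1 and highest in WT3 and WT4, the mean of the late genes was 0.93 in WT3 and at most 0.01 elsewhere, and the mean of the heat shock genes lay between −0.1 and 0.11.

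Markers of other cell types were set beside these values, since fewer expressing cells and less RNA per cell cannot be told apart in bulk libraries. All 10 microglial markers had an identifier and 8 were tested, and they summed to 4.22, 8.19, 4.49 and 20.2 CPM in WT1 to WT4 and to 8.97, 30.2, 47.4 and 3.86 CPM in KO1 to KO4, with 7 of the 8 higher in KO, a median log2 fold change of 1.37 and 0 past either threshold. Of the defining markers, Tmem119 had 0 to 2 counts per library, with 0 in every WT library, and P2ry12 had 0 to 13. The 7 astrocyte markers, all tested, summed to 1460, 1250, 827 and 1110 CPM in WT and to 1370, 1420, 1600 and 767 CPM in KO. WT3, the highest library for Fos, Fosb and Junb, thus had the lowest astrocyte sum in WT, and it also had the lowest sums of all libraries for endothelial and mural markers (5.22 CPM, against 8.59 to 20.9 CPM), fibroblast markers (5.33 CPM, against 11.2 to 34 CPM) and cycling progenitor markers (280 CPM, against 368 to 464 CPM). Of the 8 cycling markers, 2 passed the study's threshold, higher in KO, which were Ccnb1 (log2 fold change 0.65, unadjusted p 0.00864) and Top2a (0.48, unadjusted p 0.0356), and of 13 neuronal markers 1 passed it, the vesicular glutamate transporter Slc17a7, lower in KO (−0.32, unadjusted p 0.016), by edgeR and against 5.67% of all tested genes. None of these 3 passed the adjusted threshold, and no marker of the other cell types passed either. WT4, the second highest for Fos and Fosb, had the highest fibroblast sum. Interneuron markers summed to 171 to 263 CPM in WT and 195 to 330 CPM in KO, and those of oligodendrocyte precursors to 446 to 535 CPM and 459 to 552 CPM. The part of cell composition in the members' levels was not tested.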

How the data were processed

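Per the labels, libraries were made with a stranded poly-A kit. The authors deposited counts of reads for each Ensembl gene, not normalized: adapters were cut with Cutadapt 1.10, ribosomal RNA was removed (Bowtie2 2.2.8 is named in the submitters' processing notes), the rest were aligned to mm10 with STAR 2.5.3a, and HTSeq 0.6.1p1 in union mode counted reads with a unique alignment. Replicates were not pooled, and the use of strand in counting is not given in the sources used here. Reads that align to several places or overlap several genes are lost in this counting, which lowers genes with near-identical copies or overlapping neighbours.

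Symbols were found for 23260 of 32726 identifiers. Genes were filtered with filterByExpr by genotype, scaled by TMM and tested in R 4.3.3 with the edgeR 4.0.16 robust quasi-likelihood test and BH adjustment (threshold 0.05), with 1 surrogate variable from svaseq (sva 3.50.0), following the study's use of surrogate variables. An SE is the absolute log2 fold change divided by the square root of F. CPM used library totals, and centred values used log2 CPM with a prior count of 2. RPKM and GC content used the longest coding transcript in GENCODE vM1, and gene positions and promoters came from RefSeq on GRCm38.p6, the assembly of mm10. The floor of 3 counts covers counting error only, as reads carried no molecular identifier.

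The members and lists were chosen with earlier results of these data known. Named genes were the members, Nuak1, up to 2 genes of each companion list with the smallest p and the 5 genes nearest to the members' mean profile. Jun, Arl4d, Bdnf, Vgf, Ccnb1, Top2a, Slc17a7, Tubb3, Tmem119, P2ry12, Hsph1 and Bag3 lay outside this rule and were chosen after their values were seen. Alternatives covered surrogate variables, lane, strain label or replicate number as a term, other size factors and filters, DESeq2 1.42.0, limma-voom (limma 3.58.1), each lane alone and each library left out. The edgeR procedure was tested on simulated data with known changes. Read length is given differently in the labels and the study's methods.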

Additional observations from a re-analysis of the deposited data

Results flagged for a closer look

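Arc in KO1 was at 0.144 CPM, below the other KO libraries at 0.593 to 0.665 CPM, and lay farther from them than expected of 4 samples, with a gap of 0.862 of the group's range, past Dixon's 95% critical value. Both genotypes of all 10 members gave 20 such groups, of which 1 was past the critical value, and chance alone gives about 1 in 20. KO1 had 5 Arc counts, and the centred median of its GC-rich genes minus that of its GC-poor genes was −0.83 on the log2 scale.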

How the results depend on the processing

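The count of members past the adjusted threshold was 0 in the reported fit and in all 23 alternatives (DESeq2 gave Junb and Arc no adjusted p), and the members' median log2 fold change stayed negative in all of them, from −0.66 on lane A alone to −0.17 without WT4. The count past the study's threshold, 1 in the reported fit, was 0 with no or 2 surrogate variables, with lane or strain label as a term, with at least 1 CPM in 4 libraries (which left Junb untested), with DESeq2, with limma-voom and on lane A or lane B alone. Leaving out 1 library, or replicate 1 of both genotypes, gave 0 to 3, with 0 without KO4, WT3 or replicate 1, Fosb alone without KO2, Egr3 alone without WT4, and Fosb, Junb and Arc without WT2. Over all genes, the 8 past the adjusted threshold became 4 with no surrogate variable or with a lane term, 17 with 2 surrogate variables, 1 with the strain label, 49 without a filter, 169 with DESeq2, 0 on lane A and 99 on lane B, and 3 to 114 with libraries left out (114 without WT3). The 923 genes past the study's threshold became 396 with no surrogate variable, 452 with a lane term, 310 with the strain label, 1476 without a filter, 96 on lane A, 1612 on lane B, and 588 to 1389 with libraries left out. Replicate numbers did not pair the samples, the correlations of deviations between same-numbered libraries being 0.8, 0.01, 0.25 and 0, and not every library correlated best with its own number. With a replicate block, with or without the surrogate variable, 0 members and 3 genes passed the adjusted threshold and 1 member, Junb, passed the study's threshold. The fit with the strain label compares the genotypes only within label BK, KO4 against WT2 and WT4, so its values rest on 1 KO library.

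Log2 fold changes of Fos and Fosb were negative in 23 of 23 alternatives, and those of Junb and Arc in 22 of 22, where Arc ranged from −0.83 on lane A to −0.03 without WT4. Fosl2 changed sign with a lane term (−0.01), the strain label (−0.27), a replicate block without (−0.0026) and with (−0.04) the surrogate variable, on lane A (−0.23), and without KO2, KO3 or WT2 (range with libraries left out −0.07 to 0.12). Egr3 was 0.11 on lane B and 0.04 without replicate 1 (left-out range −0.36 to 0.04), Npas4 was 0.14 on lane B, and without WT4 Egr1 was 0.21 (left-out range −0.56 to 0.21) and Egr2 0.09 (−0.49 to 0.09). The heat shock median was 0.16 with the strain label and −0.02 on lane B. The median of the rapid primary response genes ranged from −0.25 on lane A to −0.04 without WT4 or with the strain label (−0.17 without WT2). The median of the late genes ranged from −0.51 on lane A to 0.1 without WT3, and that of the other AP-1 and partner factors from −0.2 on lane B to 0.21 with the strain label. The lane difference stayed at 0 members in 11 alternatives, 1 of them, with the surrogate variable kept, chosen after seeing the data. The cause of these changes was not tested. Depth limited Junb, Arc and Egr4, whose lowest libraries held 1, 5 and 0 counts.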
